A study of Mus musculus with 33 samples.

Results

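The comparison set day 7 of embryonic stem (ES) cell differentiation against day 6, in 2 mouse lines labelled RepB and wildtype (WT). It rested on 4 RNA-seq libraries of the 33 samples of the series: RepB day 7 and WT day 7, against RepB day 6 and WT day 6, chosen by the line and day in their labels. All 24391 genes of the deposited count table were eligible, and 13955 passed the low-count filter and were tested. Both lines carried chromosomes of a CAST/Ei x 129/Sv/Jae cross, and RepB is a genotype name that refers to Repeat B of Xist. The labels name neither the RepB edit, nor the allele that bears it, nor a clone number, so each line stood for a lone culture series. According to the growth protocol in the labels, cells left their irradiated fibroblast feeders and LIF, formed embryoid bodies in suspension and were plated on gelatin at day 4, with serum throughout. Days 6 and 7 therefore both followed plating. No treatment separated the libraries apart from 1 more day in culture. Each line had 1 library a day, also at days 0, 5, 8 and 10, and the 21 chromatin samples were not analysed here.

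Embryoid bodies pass through steps that resemble early development. Naive ES cells first take on the state of the epiblast, the layer that gives rise to the embryo proper, and part of them then switch on primitive streak genes such as T and Eomes. Cells that leave the streak become mesoderm or endoderm. Lateral plate mesoderm, which contributes to heart, body wall and the extraembryonic mesenchyme, is known for the regulators Hand1, Foxf1, Tbx20 and Gata4 and for its dependence on BMP signalling. In female cells the same window holds X-inactivation, in which Xist RNA coats an X chromosome and its genes fall silent.

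The day 7 libraries held 4428785 counts (RepB) and 11238856 counts (WT), against 6977752 (RepB) and 14409430 (WT) at day 6. Levels are CPM, the counts of a gene scaled to a common library size. A gene with no count can only be bounded by 3 counts, which is 0.684 and 0.267 CPM (RepB, WT) at day 7 and 0.420 and 0.204 CPM (RepB, WT) at day 6, counting error only. Changes are log2 ratios of day 7 over day 6 from edgeR's quasi-likelihood fit, with line as block, each with its standard error (SE), and a gene was called at a Benjamini-Hochberg adjusted p under 0.05. The fit used the 10 libraries of days 5 to 10, so its spread is how much the RepB/WT difference varied from day to day. With 1 culture a line and day, these p-values say nothing about other cultures, and the day cannot be told apart from any other difference between the libraries of those days.

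Mesoderm regulators, BMP ligands, collagens and several imprinted genes rose at day 7, while pluripotency, epiblast and organizer genes fell. Of the genes tested, 861 were higher at day 7 (6.17%) and 490 were lower (3.51%), and the median over all genes was -0.01 on the log2 scale. Counts in the gene lists and families below are to be read against these shares. The share of all tested genes with no overlap between day 7 and day 6 libraries is not given here. Statements of such separation below are descriptions of the genes named. The rises reached further than the falls. Among the higher genes, 482 had changed over 2-fold, 155 over 4-fold and 59 over 8-fold, whereas 204, 15 and 2 of the lower genes had. The filter used days 5 to 10, so genes near 0 at day 6 could enter through later days. The part of this in the large rises was not tested. Over 8-fold, the other steps also had more rises than falls: 104 and 1 (day 5 to 6), 68 and 8 (day 7 to 8), and 144 and 31 (day 8 to 10). The change had the same sign in RepB and WT for 859 of the 861 higher and for all 490 lower genes, which the calls, made over both lines, largely fix. These counts depended on single libraries. They came to 294 higher and 58 lower without RepB day 7, to 281 and 66 without WT day 7, to 358 and 143 without RepB day 6, and to 362 and 134 without WT day 6. Of the called genes, 203 of the higher and 33 of the lower were called in each of these 4 fits.

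Transcription factors of lateral and heart mesoderm were among the steepest rises. Hand1, a bHLH factor needed in the heart and in extraembryonic mesoderm, stood at 679 and 468 CPM (RepB, WT) at day 7, against 30.4 and 18.6 CPM (RepB, WT) at day 6 (log2 4.58 ± 0.26 SE, edgeR adjusted p = 5.8e-06). Both day 7 libraries were far above both day 6 libraries, and RepB was the higher line on each day. In mm9 the first exon listed for Hand1 lies at chr11:57642215-57643208 on the minus strand. Foxf1, a forkhead factor of lateral and splanchnic mesoderm, had 82.1 and 66.7 CPM (RepB, WT) at day 7, against 4.35 and 3.06 CPM (RepB, WT) at day 6 (log2 4.36 ± 0.25, edgeR adjusted p = 5.8e-06). Fendrr, a long noncoding RNA transcribed next to Foxf1 on chromosome 8, had 10.3 and 13.5 CPM (RepB, WT) at day 7, against 0.561 and 0.544 CPM (RepB, WT) at day 6 (log2 4.44 ± 0.41). Its day 6 values rested on only 4 and 8 counts (RepB, WT). Foxf1 and Fendrr moved together in both lines, and at day 5 Fendrr had no count in RepB and 0.111 CPM in WT. The T-box factor Tbx2 had 41.5 and 33.7 CPM (RepB, WT) at day 7, against 1.96 and 1.43 CPM (RepB, WT) at day 6 (log2 4.53 ± 0.36), and Tbx20, a T-box factor of the heart, 83.5 and 64.4 CPM (RepB, WT) at day 7, against 7.29 and 4.49 CPM (RepB, WT) at day 6 (log2 3.70 ± 0.31). Neither factor's groups overlapped. In bulk RNA, a larger share of cells of a type and more RNA per cell cannot be told apart, here and in all results that follow.

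Other leading rises included factors of limb and facial mesenchyme and of cell migration. Snai2, a zinc finger repressor of epithelial genes, had 10.0 and 10.8 CPM (RepB, WT) at day 7, against 0.280 and 0.408 CPM (RepB, WT) at day 6 (log2 4.80 ± 0.44), with 2 and 6 counts behind the day 6 values (RepB, WT). Pitx1, a homeobox factor known from hindlimb and pituitary, had 13.7 and 6.40 CPM (RepB, WT) at day 7, against 0.841 and 0.408 CPM (RepB, WT) at day 6 (log2 3.97 ± 0.46). Dlx2, a homeobox factor of forebrain and facial mesenchyme, had 6.39 and 6.40 CPM (RepB, WT) at day 7, against 0.420 and 0.340 CPM (RepB, WT) at day 6 (log2 4.10 ± 0.47). All 3 were near the counting floor at day 6. Unc5c, a netrin receptor, had 61.4 and 66.0 CPM (RepB, WT) at day 7, against 3.92 and 2.38 CPM (RepB, WT) at day 6 (log2 4.43 ± 0.37). Tdo2, the tryptophan dioxygenase, had 2.74 and 1.87 CPM (RepB, WT) at day 7, against 0.140 and 0 CPM (RepB, WT) at day 6, and Ttr, the transthyretin carrier, had 2.51 and 1.07 CPM (RepB, WT) at day 7, against 0.140 and 0 CPM (RepB, WT) at day 6. Each of that pair rested on 1 count (RepB) and none (WT) at day 6, so no fold is given for them. The row named Adgra3 had 180.0 and 139 CPM (RepB, WT) at day 7, against 6.31 and 8.71 CPM (RepB, WT) at day 6 (log2 4.34 ± 0.34). The deposited table places it on chromosome 8 whereas RefSeq places Adgra3 on chromosome 5, so the identity of that row is uncertain. Airn, an antisense RNA in the imprinted Igf2r gene, had 8.21 and 9.15 CPM (RepB, WT) at day 7, against 0.701 and 0.612 CPM (RepB, WT) at day 6 (log2 3.75 ± 0.31). Its day 6 values rested on only 5 and 9 counts (RepB, WT). It overlaps Igf2r, and since the counting is not stated to use strand, reads of the pair cannot be told apart; Igf2r itself had 108 and 118.7 CPM (RepB, WT) at day 7, against 114 and 142 CPM (RepB, WT) at day 6.

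Of 24 listed regulators of lateral and heart mesoderm, all tested, 19 were higher and none lower, where 6.17% and 3.51% of all genes tested were. Their median log2 change was 2.18, against -0.01 over all genes tested. Without 1 library the higher members numbered 15 (RepB day 7), 14 (WT day 7), 15 (RepB day 6) and 14 (WT day 6). The list includes Bmp2, Bmp4, Bmp5, Bmp7 and Smad6, described with BMP signalling. Hand2, the paralog of Hand1 in the second heart field, had 45.4 and 45.3 CPM (RepB, WT) at day 7, against 5.33 and 4.35 CPM (RepB, WT) at day 6 (log2 3.26 ± 0.20). Gata4, a zinc finger factor of heart and endoderm, had 161 and 139.6 CPM (RepB, WT) at day 7, against 48.5 and 42.7 CPM (RepB, WT) at day 6 (log2 1.73 ± 0.14), and Isl1, a LIM factor of cardiac progenitors, 13.5 and 20.9 CPM (RepB, WT) at day 7, against 4.49 and 3.74 CPM (RepB, WT) at day 6 (log2 2.12 ± 0.25). Msx2, a homeobox target of BMP, had 233 and 198 CPM (RepB, WT) at day 7, against 44.6 and 29.9 CPM (RepB, WT) at day 6 (log2 2.56 ± 0.25). In every library of day 7 these genes were above their day 6 values. RepB and WT lay close to each other for Hand2 and Gata4, and further apart for Isl1 at day 7 and Msx2 at day 6. Tbx5, a T-box factor of heart and forelimb, had a log2 change of 3.18 ± 0.30 at 7.98 and 10.6 CPM (RepB, WT) on day 7. The calls of Gata6 (0.65 ± 0.18), Meis1 (1.34 ± 0.35), Meis2 (1.11 ± 0.28), Msx1 (1.38 ± 0.24) and Nkx2-5 (2.25 ± 0.55) were lost without at least 1 of the 4 libraries. Nkx2-5, the early heart factor, stayed low at 2.74 and 2.31 CPM (RepB, WT) at day 7, against 0.701 and 0.408 CPM (RepB, WT) at day 6.

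**Figure D1:**
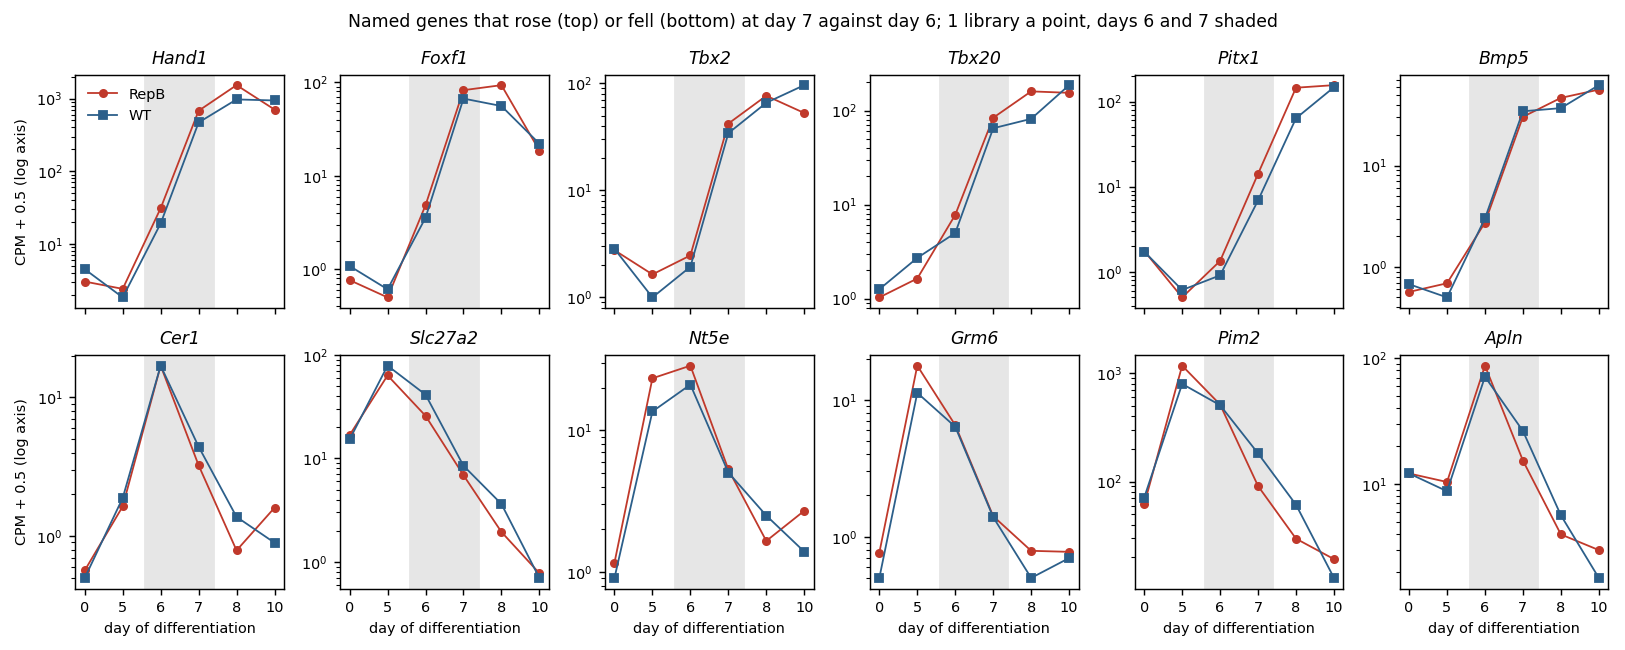
Levels of 6 named genes that rose (top) and 6 that fell (bottom), as CPM plus 0.5 on a log axis, against day of differentiation; 1 point is 1 library, circles RepB and squares WT, days 6 and 7 shaded. Hand1 stood at 679 and 468 CPM (RepB, WT) at day 7 against 30.4 and 18.6 CPM (RepB, WT) at day 6, and the falling genes had passed their highest level by day 7.

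BMP signalling genes moved with the mesoderm regulators. BMPs are secreted ligands that signal through SMAD proteins and induce Id genes and inhibitory SMADs. Among the ligands, Bmp4 had 268 and 208 CPM (RepB, WT) at day 7, against 50.5 and 28.3 CPM (RepB, WT) at day 6 (log2 2.64 ± 0.27), Bmp2 101.7 and 97.7 CPM (RepB, WT) at day 7, against 24.0 and 19.05 CPM (RepB, WT) at day 6 (log2 2.24 ± 0.17), and Bmp5 29.9 and 34.0 CPM (RepB, WT) at day 7, against 2.24 and 2.52 CPM (RepB, WT) at day 6 (log2 3.74 ± 0.25). Bmp7 rose less, with 46.5 and 65.9 CPM (RepB, WT) at day 7, against 21.3 and 24.2 CPM (RepB, WT) at day 6 (log2 1.32 ± 0.16). All 4 ligands had both day 7 libraries above both day 6 libraries, and each call held without any 1 of the 4 libraries. Among 17 listed targets and modulators of BMP and TGF-beta, 9 were higher and 1 was lower, with a median of 0.90. Smad6, an inhibitory SMAD, had 128 and 98.4 CPM (RepB, WT) at day 7, against 26.6 and 20.8 CPM (RepB, WT) at day 6 (log2 2.27 ± 0.20). Id3, an inhibitor of bHLH factors, changed by 1.38 ± 0.18 and Id2 by 0.90 ± 0.15, and Bambi, a decoy receptor, by 1.71 ± 0.17; the call of Id2 was lost without WT day 7 or WT day 6. Tgfb2, a TGF-beta ligand, had 127 and 120.3 CPM (RepB, WT) at day 7, against 28.6 and 22.3 CPM (RepB, WT) at day 6 (log2 2.303 ± 0.16). Of the extracellular antagonists, Nog had a log2 change of 1.15 ± 0.27 and Fst, which binds activin and BMPs, -1.91 ± 0.48. Fst had 35.4 and 62.9 CPM (RepB, WT) at day 7, against 193 and 189.9 CPM (RepB, WT) at day 6; its call was lost without each of the 4 libraries in turn (edgeR), and Nog's without 3 of them. Id1 did not pass the test, at 127 and 135 CPM (RepB, WT) at day 7, against 101 and 86.2 CPM (RepB, WT) at day 6. Without 1 library, 7 (RepB day 7), 6 (WT day 7), 8 (RepB day 6) and 6 (WT day 6) members of the list were higher.

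Among the called genes of the Wnt list, Lgr5, Nkd1 and Wnt5a rose the most. Wnt1, outside that list, was also called higher. Of 21 listed targets and feedback genes, 5 were higher and 1 was lower, with a median of 0.44, where 6.17% and 3.51% of all genes tested were. Lgr5, an R-spondin receptor, had 8.89 and 10.9 CPM (RepB, WT) at day 7, against 0.701 and 1.497 CPM (RepB, WT) at day 6 (log2 3.10 ± 0.38), and Nkd1, an intracellular antagonist, 122 and 118 CPM (RepB, WT) at day 7, against 36.4 and 41.7 CPM (RepB, WT) at day 6 (log2 1.62 ± 0.13). Wnt5a, a ligand that acts mainly outside the beta-catenin route, had 83.9 and 78.9 CPM (RepB, WT) at day 7, against 29.3 and 26.9 CPM (RepB, WT) at day 6 (log2 1.55 ± 0.21). These 3 kept their calls without any 1 of the 4 libraries. Dkk1 (1.12 ± 0.17), an antagonist, and Fzd7 (0.44 ± 0.12), a receptor, did not, nor did Wnt8a, a ligand of the gastrulating embryo that fell by 2.299 ± 0.47 on the log2 scale, with 3.88 and 4.80 CPM (RepB, WT) at day 7, against 24.9 and 21.8 CPM (RepB, WT) at day 6. The general beta-catenin target Axin2 did not pass the test, at 118 and 122.6 CPM (RepB, WT) at day 7, against 111 and 115 CPM (RepB, WT) at day 6.

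Promoter sequence was at hand for 16 of the 29 named genes in the RefSeq promoter table (GRCm38.p6), taking the 250 bases before each start. They are shown for a pair of genes that rose in both lines, Dlx2 and Tbx20, and for a pair that fell in both, Grm6 and Cer1. Capitals mark a CCAAT box (CCAAT) or an E-box (CACGTG), found by letters alone on both strands.
Dlx2, chr2:71546755-71547004, minus strand: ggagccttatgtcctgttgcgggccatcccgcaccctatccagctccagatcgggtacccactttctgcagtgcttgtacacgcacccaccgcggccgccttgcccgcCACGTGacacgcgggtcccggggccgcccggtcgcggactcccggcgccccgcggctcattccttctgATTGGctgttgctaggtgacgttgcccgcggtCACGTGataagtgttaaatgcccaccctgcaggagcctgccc
Tbx20, chr9:24774304-24774553, minus strand: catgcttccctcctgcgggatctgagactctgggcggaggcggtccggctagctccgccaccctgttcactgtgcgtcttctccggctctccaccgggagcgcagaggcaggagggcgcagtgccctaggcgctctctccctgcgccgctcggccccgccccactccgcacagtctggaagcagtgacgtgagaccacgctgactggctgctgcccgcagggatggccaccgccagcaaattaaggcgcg
Grm6, chr11:50850435-50850684, plus strand: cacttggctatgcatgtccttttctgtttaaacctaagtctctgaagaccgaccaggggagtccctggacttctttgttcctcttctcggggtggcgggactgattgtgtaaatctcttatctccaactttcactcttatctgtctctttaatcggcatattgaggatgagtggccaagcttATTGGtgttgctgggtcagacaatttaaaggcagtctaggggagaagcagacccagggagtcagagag
Cer1, chr4:82885152-82885401, minus strand: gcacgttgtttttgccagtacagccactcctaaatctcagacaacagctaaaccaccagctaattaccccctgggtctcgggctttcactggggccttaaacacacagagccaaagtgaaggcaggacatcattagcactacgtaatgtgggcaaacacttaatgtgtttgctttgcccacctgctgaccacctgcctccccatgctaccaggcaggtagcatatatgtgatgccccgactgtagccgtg
Dlx2 held a CCAAT box starting 74 bases and E-boxes starting 142 and 42 bases before its start, and Grm6 a CCAAT box starting 68 bases before it. None of the searched letters occurred in the windows of Tbx20 and Cer1. Over the 32850 promoters of the table, 33.9% held a CCAAT box and 6.02% an E-box, against 6 and 2 of the 16 named genes. A TATA box (TATAAA) was in 12.4% of all promoters and in 3 of the 16. The AP-1 site (TGANTCA, in 6.75% of all), the CRE (TGACGTCA, in 1.55%) and the CArG box (in 1.47%) occurred in none of the 16. A match of letters is no evidence that a factor binds.

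Collagens and other genes of the extracellular matrix rose, while laminins did not pass the test. Of 30 listed collagens, laminins and matrix proteins, 29 were tested, 13 were higher and none was lower, with a median of 0.87. Col1a1, the main chain of fibrillar collagen, had 613 and 438 CPM (RepB, WT) at day 7, against 75.8 and 60.3 CPM (RepB, WT) at day 6 (log2 2.95 ± 0.21, edgeR adjusted p = 2.4e-05). Col4a1, a chain of the basement membrane, had 659.8 and 709.9 CPM (RepB, WT) at day 7, against 195 and 274 CPM (RepB, WT) at day 6 (log2 1.57 ± 0.22), and its partner Col4a2 382 and 367 CPM (RepB, WT) at day 7, against 98.1 and 116 CPM (RepB, WT) at day 6 (log2 1.82 ± 0.21). Day 7 was above day 6 in both lines for each chain. Col5a1 changed by 1.45 ± 0.18, Col6a1 by 2.10 ± 0.19 and Fbn2, a fibrillin, by 1.97 ± 0.27. Fn1, fibronectin, had 5514 and 6039 CPM (RepB, WT) at day 7, against 2573 and 3021 CPM (RepB, WT) at day 6 (log2 1.06 ± 0.20). The calls of Fn1, Sparc, Mmp2, Vcan, Fbn1, Col1a2 and Postn were lost without at least 1 of the 4 libraries; without WT day 7 the list had 6 higher members, against 11 without RepB day 7, 9 without RepB day 6 and 12 without WT day 6. Laminin chains did not pass the test, among them Lamb1 with 291 and 312 CPM (RepB, WT) at day 7, against 242 and 272 CPM (RepB, WT) at day 6 and Lamc1 with 369 and 399.6 CPM (RepB, WT) at day 7, against 292 and 367 CPM (RepB, WT) at day 6.

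Markers of fibroblasts, which the feeder layer would also express, moved with the matrix genes. Of 16 listed, 15 were tested, 8 were higher and none was lower, with a median of 1.63. Without 1 library the higher members numbered 7 (RepB day 7), 6 (WT day 7), 6 (RepB day 6) and 5 (WT day 6). Col1a1, Col1a2 and Postn stand on both this list and the matrix list. The summed level of the 16 listed fibroblast markers was 1373 CPM (RepB) and 1054 CPM (WT) at day 7, against 485 CPM (RepB) and 365 CPM (WT) at day 6. The defining markers Dcn and Lum were near 0 on both days, with Dcn at 0 and 0.267 CPM (RepB, WT) at day 7, against 0.561 and 1.91 CPM (RepB, WT) at day 6, and Thy1 did not pass the test, at 15.5 and 10.4 CPM (RepB, WT) at day 7, against 18.8 and 15.6 CPM (RepB, WT) at day 6. Allelic counts of these genes changed with time. At day 0, on feeders, 1.36% (RepB) and 1.02% (WT) of allelic Col1a1 counts were assigned to cas, the allele read here as CAST/Ei. That share was 64.1% (RepB) and 67.4% (WT) at day 7, against 74.3% (RepB) and 78.0% (WT) at day 6, from 70 to 779 allelic counts a library. Col1a2 had a cas share of 79.4% (RepB) and 56.7% (WT) at day 7 and 75% (RepB) and 72.1% (WT) at day 6, against 18.8% (RepB) and 18.5% (WT) at day 0. Most of the allelic counts of both collagen I genes thus carried cas variants on days 6 and 7, and most of those of day 0 did not. Between day 6 and day 7 the Col1a1 share was lower at day 7 in both lines. Lgals1, a galectin, also rose (0.94 ± 0.15), and its allelic counts were mostly mus at day 7 and mostly cas at day 6. Its cas share was 13.8% (RepB) and 5.66% (WT) at day 7, against 72.2% (RepB) and 64.3% (WT) at day 6, from 18 to 53 allelic counts a library. The edgeR test on allelic counts did not call this change (log2 odds -4.43 ± 1.47, edgeR adjusted p = 0.60). Lgals1 lies on chromosome 15, where 85.8% of genes with at least 20 allelic counts had under 5% cas at WT day 7. The strain of the feeders is not given in the sources used here. Tnc (2.13 ± 0.21), Cd44 (1.63 ± 0.18) and Pdgfrb (1.49 ± 0.24) also rose, and their allelic counts were under 1% cas on both days, so they hold no such reading. Across autosomal genes, loci with both alleles in the counts were in the minority: by library, 58.1% to 59.5% of those with at least 20 allelic counts had under 5% cas. That share depended on the chromosome. At WT day 7 it ran from 1.63% on chromosome 13 to 90.6% on chromosome 19. The part of feeder RNA in the rise of these markers was not tested.

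Genes of the epithelial to mesenchymal transition, in which cells lose their junctions and migrate, split by role. Of 15 listed, 5 were higher and 4 lower. The higher ones were mesenchymal: besides Snai2, the filament protein Vim had 1256 and 1163 CPM (RepB, WT) at day 7, against 743 and 529 CPM (RepB, WT) at day 6 (log2 0.96 ± 0.14), Zeb2 57.9 and 65.1 CPM (RepB, WT) at day 7, against 26.1 and 24.97 CPM (RepB, WT) at day 6 (log2 1.30 ± 0.23), Zeb1 31.5 and 32.8 CPM (RepB, WT) at day 7, against 12.6 and 11.2 CPM (RepB, WT) at day 6 (log2 1.46 ± 0.24), and Twist2 19.8 and 14.8 CPM (RepB, WT) at day 7, against 5.75 and 3.402 CPM (RepB, WT) at day 6 (log2 1.97 ± 0.31). The lower ones were epithelial. E-cadherin (Cdh1) had 566 and 574 CPM (RepB, WT) at day 7, against 973 and 992 CPM (RepB, WT) at day 6 (log2 -0.77 ± 0.17), Epcam 129.8 and 122.9 CPM (RepB, WT) at day 7, against 214 and 204 CPM (RepB, WT) at day 6 (log2 -0.71 ± 0.15), and Cldn6 and the splicing factor Esrp1 fell by 0.53 and 0.46 on the log2 scale. Of the higher members, Zeb1 lost its call without WT day 7, Zeb2 without WT day 7 or RepB day 6, and Twist2 without WT day 6, which left 5 (without RepB day 7), 3 (WT day 7), 4 (RepB day 6) and 4 (WT day 6) higher. The falls were under 2-fold, and none of them held without each of the 4 libraries; without RepB day 7, WT day 7 or WT day 6 no epithelial member was called. N-cadherin (Cdh2) and Snai1 did not pass the test, at 209 and 256 CPM (RepB, WT) at day 7, against 184 and 189.9 CPM (RepB, WT) at day 6 for Cdh2 and 70.2 and 72.3 CPM (RepB, WT) at day 7, against 69.0 and 71.8 CPM (RepB, WT) at day 6 for Snai1.

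Imprinted genes, which are expressed from the maternal or the paternal copy, held some of the most abundant rises. Of 21 listed, 20 were tested, 6 were higher and none was lower. H19, a noncoding RNA, had 3755 and 2346 CPM (RepB, WT) at day 7, against 512 and 335 CPM (RepB, WT) at day 6 (log2 2.85 ± 0.19, edgeR adjusted p = 1.8e-05). Its neighbour Igf2, the growth factor, had 174 and 166 CPM (RepB, WT) at day 7, against 20.2 and 20.7 CPM (RepB, WT) at day 6 (log2 3.05 ± 0.24). Both genes of the pair were several-fold above day 6 in both lines. Mest had 1517 and 1297 CPM (RepB, WT) at day 7, against 396 and 416 CPM (RepB, WT) at day 6 (log2 1.81 ± 0.14), Peg10, a retrotransposon-derived gene of the placenta, 7325 and 6250.1 CPM (RepB, WT) at day 7, against 2519 and 2272 CPM (RepB, WT) at day 6 (log2 1.51 ± 0.17), and Slc38a4, an amino acid transporter, 666 and 594 CPM (RepB, WT) at day 7, against 328 and 294 CPM (RepB, WT) at day 6 (log2 1.03 ± 0.14). Peg3 had 4145 and 4013 CPM (RepB, WT) at day 7, against 1909 and 1936 CPM (RepB, WT) at day 6 (log2 1.09 ± 0.24), and its call was lost without RepB day 7, WT day 7 or RepB day 6. The Dlk1 to Dio3 genes Meg3 and Rian did not pass the test, with Meg3 at 869 and 1014 CPM (RepB, WT) at day 7, against 733 and 978 CPM (RepB, WT) at day 6. The cas share of Peg10 was 70.5% (RepB) and 69.5% (WT) at day 7, against 73.3% (RepB) and 74.1% (WT) at day 6. H19 and Mest had cas shares under 2% in all 4 libraries. Over all autosomes, 58.6% to 59.1% of genes with at least 20 allelic counts had under 5% cas in these libraries. That share differed by chromosome. At WT day 7 it was 70.6% on chromosome 6, which holds Mest, and 16.0% on chromosome 7, which holds H19. Which copy of H19 or Mest was expressed was not tested.

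Keratins and trophoblast regulators rose as well. Of 17 listed, 13 were tested, 8 were higher and none was lower, with a median of 1.12. Krt8 had 754 and 581 CPM (RepB, WT) at day 7, against 402 and 281 CPM (RepB, WT) at day 6 (log2 0.98 ± 0.16) and its partner Krt18 1007 and 769.9 CPM (RepB, WT) at day 7, against 482 and 343 CPM (RepB, WT) at day 6 (log2 1.12 ± 0.20). Gata3, a zinc finger factor of trophoblast and surface ectoderm, had 51.5 and 46.3 CPM (RepB, WT) at day 7, against 15.4 and 10.9 CPM (RepB, WT) at day 6 (log2 1.93 ± 0.23), Gata2 39.0 and 25.7 CPM (RepB, WT) at day 7, against 15.7 and 13.2 CPM (RepB, WT) at day 6 (log2 1.13 ± 0.17), and Cdx2, which marks trophoblast and posterior mesoderm, 30.8 and 35.2 CPM (RepB, WT) at day 7, against 9.25 and 8.57 CPM (RepB, WT) at day 6 (log2 1.92 ± 0.17). Hand1 and Peg10, described above, are also on this list. The trophoblast factor Tfap2c did not pass the test, with 49.0 and 34.7 CPM (RepB, WT) at day 7, against 67.3 and 47.0 CPM (RepB, WT) at day 6. The calls of Krt8, Krt18 and Plac1 (2.26 ± 0.39) were lost without at least 1 of the 4 libraries, with 5 higher members left without RepB day 7, 8 without WT day 7, 7 without RepB day 6 and 6 without WT day 6.

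Markers of endoderm, blood and endothelium gave few calls that held without each library. Their shares of higher members exceeded the 6.17% of all genes tested. Members that passed the filter through their later days had to be higher there, so these counts are a description. With the 4 libraries of days 6 and 7 alone, 9 visceral endoderm carriers and 9 blood genes were tested. Of 12 endoderm regulators, 4 were higher and none lower. They included Cxcr4, a chemokine receptor (1.15 ± 0.18), Foxa1 (1.19 ± 0.24) and Gata6, and none of the called members kept its call without each of the 4 libraries. Of the visceral endoderm carriers, 3 of 18 tested were higher and none was lower: Ttr, described above, Spink1, a trypsin inhibitor (2.88 ± 0.37), and Cited1, a transcriptional coactivator (0.93 ± 0.19), whose call was lost without RepB day 7, WT day 7 or WT day 6. Sox17 and Foxa2, the defining regulators, did not pass, with Sox17 at 27.8 and 33.8 CPM (RepB, WT) at day 7, against 14.4 and 25.9 CPM (RepB, WT) at day 6 and Foxa2 at 10.0 and 19.7 CPM (RepB, WT) at day 7, against 16.5 and 23.8 CPM (RepB, WT) at day 6. Of 15 tested blood genes 3 were higher: Runx1, a regulator needed for definitive blood, with 42.4 and 47.6 CPM (RepB, WT) at day 7, against 14.4 and 10.1 CPM (RepB, WT) at day 6 (log2 1.93 ± 0.19), Gata2, and Tal1 (2.01 ± 0.47), whose call failed without any 1 of the 4 libraries. The embryonic globin Hbb-bh1 stayed near the floor, at 1.37 and 1.07 CPM (RepB, WT) at day 7, against 1.12 and 0.544 CPM (RepB, WT) at day 6. Of 16 endothelial genes 2 were higher, with a median of -0.07 and a positive change in 7. Kdr, the VEGF receptor of mesodermal progenitors and endothelium, had 234 and 215 CPM (RepB, WT) at day 7, against 71.1 and 70.7 CPM (RepB, WT) at day 6 (log2 1.67 ± 0.17), and Erg had 1.14 and 1.6 CPM (RepB, WT) at day 7, against 0 and 0.204 CPM (RepB, WT) at day 6, where the call rested on few counts and was lost without WT day 7 or RepB day 6. Pecam1, which ES cells also express, did not pass, at 42.9 and 21.4 CPM (RepB, WT) at day 7, against 58.7 and 29.4 CPM (RepB, WT) at day 6.

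Contractile genes moved both ways, with 6 of 24 tested members higher and 5 lower, where 6.17% and 3.51% of all genes tested were. The sarcomere genes Tnnc1 (1.95 ± 0.33), Myh7 (2.85 ± 0.45), Myl4 (1.86 ± 0.41) and Tnni1 (2.61 ± 0.53) rose at low levels, with Tnnc1 at 14.6 and 13.0 CPM (RepB, WT) at day 7, against 3.50 and 3.67 CPM (RepB, WT) at day 6. Myocd, a coactivator of smooth and cardiac muscle genes, had 3.19 and 3.29 CPM (RepB, WT) at day 7, against 0.420 and 0.340 CPM (RepB, WT) at day 6 (log2 3.11 ± 0.43), and alone of this list kept its call without each of the 4 libraries. Actc1, cardiac actin, fell by 1.72 ± 0.46 on the log2 scale, with 5.47 and 6.04 CPM (RepB, WT) at day 7, against 26.1 and 13.4 CPM (RepB, WT) at day 6, and Cnn1, a smooth muscle calponin, had 47.4 and 41.7 CPM (RepB, WT) at day 7, against 109 and 74.8 CPM (RepB, WT) at day 6 (log2 -1.02 ± 0.17). Myh6 and Tnnt2, which define cardiomyocytes, were near the floor, with Tnnt2 at 1.14 and 1.16 CPM (RepB, WT) at day 7, against 0.841 and 0.476 CPM (RepB, WT) at day 6. Without 1 library the list had 2 higher and 0 lower members (RepB day 7), 4 and 1 (WT day 7), 5 and 0 (RepB day 6), and 1 and 5 (WT day 6).

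Among neural genes 2 of 13 tested members were higher and 2 lower, where 6.17% and 3.51% of all genes tested were. Nes, an intermediate filament of progenitors, had 109 and 124 CPM (RepB, WT) at day 7, against 241 and 245 CPM (RepB, WT) at day 6 (log2 -1.05 ± 0.13), and was the only call that held without each of the 4 libraries. Map2 fell by 0.81 ± 0.20 on the log2 scale and Ncam1 rose by 0.87 ± 0.19. Six3, a homeobox factor of the forebrain, had 0.228 and 8.35 CPM (RepB, WT) at day 7, against 0 and 0.748 CPM (RepB, WT) at day 6, so that its call came from WT, and Sox1 was likewise higher in WT, at 1.14 and 16.1 CPM (RepB, WT) at day 7, against 2.10 and 9.19 CPM (RepB, WT) at day 6. The labels name a directional library kit but the counting is not stated to use strand, and Six3 has an antisense neighbour.

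Hox genes, the clustered homeobox genes that pattern the body axis, appeared at low levels. Of the 39 deposited, 30 were tested, and 11 were higher and none lower. On log2(CPM + 0.5) their median change was 1.14 in RepB and 0.98 in WT. Their summed level was 94.2 CPM (RepB) and 77.0 CPM (WT) at day 7, against 47.9 CPM (RepB) and 22.2 CPM (WT) at day 6. Hoxd9, the only member called without each of the 4 libraries, had 8.21 and 7.20 CPM (RepB, WT) at day 7, against 1.82 and 0.476 CPM (RepB, WT) at day 6 (log2 2.98 ± 0.43). Hoxa10 had no count in either day 6 library and 0.912 and 0.622 CPM (RepB, WT) at day 7. Hoxb1 did not pass the test, at 9.35 and 11.6 CPM (RepB, WT) at day 7, against 20.9 and 9.46 CPM (RepB, WT) at day 6. Members that passed the filter through their later days had to be higher there, so the count is a description. Without 1 library the higher members numbered 3 (RepB day 7), 2 (WT day 7), 8 (RepB day 6) and 3 (WT day 6).

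On the falling side the largest changes were in receptors, secreted factors and enzymes. Grm6, a metabotropic glutamate receptor, had 0.912 and 0.889 CPM (RepB, WT) at day 7, against 6.03 and 5.85 CPM (RepB, WT) at day 6 (log2 -2.66 ± 0.40, edgeR adjusted p = 0.0022), and its first listed exon lies at chr11:50664187-50664341 in mm9. Nt5e, the ecto-nucleotidase CD73, had 4.79 and 4.53 CPM (RepB, WT) at day 7, against 28.03 and 20.5 CPM (RepB, WT) at day 6 (log2 -2.299 ± 0.28). Slc27a2, a fatty acid transporter and acyl-CoA synthetase, had 6.39 and 7.999 CPM (RepB, WT) at day 7, against 25.4 and 41.0 CPM (RepB, WT) at day 6 (log2 -2.20 ± 0.19), and Nefl, the light neurofilament, 53.8 and 56.2 CPM (RepB, WT) at day 7, against 234 and 206 CPM (RepB, WT) at day 6 (log2 -1.97 ± 0.15). Each of these genes was lower in both day 7 libraries than in both day 6 libraries. Apln, the X-linked ligand apelin, had 14.8 and 25.9 CPM (RepB, WT) at day 7, against 86.6 and 70.7 CPM (RepB, WT) at day 6 (log2 -1.89 ± 0.25), and Pim2, an X-linked kinase, 90.3 and 181 CPM (RepB, WT) at day 7, against 513 and 506 CPM (RepB, WT) at day 6 (log2 -1.91 ± 0.34). The remaining leading falls were Exoc3l (-1.94 ± 0.25), Enpp2, the lysophospholipase autotaxin (-1.96 ± 0.31), Nckap1l, a haematopoietic WAVE complex subunit (-1.92 ± 0.40), Epha8, an ephrin receptor (-1.89 ± 0.32), and Ntrk2, the receptor TrkB (-1.999 ± 0.48). Ntrk2 was near the floor at day 7, with 0.228 and 1.51 CPM (RepB, WT) at day 7, against 1.96 and 5.72 CPM (RepB, WT) at day 6. Leaving out RepB day 7 ended the calls of Wnt8a, Ntrk2, Nckap1l, Fst and Pim2 (edgeR adjusted p of 0.05 or above). Leaving out WT day 7 ended those of Wnt8a, Ntrk2, Enpp2, Nckap1l, Fst and Epha8, leaving out RepB day 6 those of Ntrk2, Nckap1l and Fst, and leaving out WT day 6 those of Wnt8a, Ntrk2, Enpp2, Fst and Epha8. None of the 14 leading rises lost its call without any 1 of the 4 libraries.

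Genes of the pluripotency network fell. Of 21 naive genes, which mark the ground state of ES cells, 12 were lower and 2 higher, with a median of -0.75. Nanog, the homeobox factor of pluripotency, had 162 and 112 CPM (RepB, WT) at day 7, against 416 and 305 CPM (RepB, WT) at day 6 (log2 -1.39 ± 0.13, edgeR adjusted p = 9.4e-05). Zfp42 (Rex1) had 88.7 and 45.7 CPM (RepB, WT) at day 7, against 199 and 94.8 CPM (RepB, WT) at day 6 (log2 -1.10 ± 0.13), Tdh, a threonine dehydrogenase of ES cells, 58.2 and 32.1 CPM (RepB, WT) at day 7, against 129 and 60.1 CPM (RepB, WT) at day 6 (log2 -1.02 ± 0.14), and Nr0b1 (Dax1), on the X, 11.4 and 8.27 CPM (RepB, WT) at day 7, against 32.2 and 18.6 CPM (RepB, WT) at day 6 (log2 -1.31 ± 0.19). In these genes RepB exceeded WT on both days, and within each line day 7 lay below day 6. Dppa3 (-1.71 ± 0.28), Dppa2 (-1.31 ± 0.21), Dppa5a (-1.30 ± 0.35), Esrrb (-0.66 ± 0.18) and Klf2 (-0.50 ± 0.12) also fell, but none of them was called in all 4 fits that left out a library. The members that rose were Tbx3, with 251 and 244 CPM (RepB, WT) at day 7, against 76.7 and 57.2 CPM (RepB, WT) at day 6 (log2 1.92 ± 0.19), and Klf4, with 40.8 and 30.5 CPM (RepB, WT) at day 7, against 24.8 and 20 CPM (RepB, WT) at day 6 (log2 0.67 ± 0.16), whose call was lost without each of the 4 libraries in turn. Tbx3 also acts in heart and limb mesoderm, and Klf4 in epithelia. Without 1 library 8 (RepB day 7), 4 (WT day 7), 6 (RepB day 6) and 7 (WT day 6) naive genes were lower.

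Of 10 core pluripotency genes 7 were lower and none higher, with a median of -0.90. Pou5f1 (Oct4; first exon at chr17:35642977-35643428, mm9) had 334 and 276 CPM (RepB, WT) at day 7, against 853 and 801 CPM (RepB, WT) at day 6 (log2 -1.44 ± 0.16). The Nodal coreceptor Tdgf1 had 135 and 141 CPM (RepB, WT) at day 7, against 450.3 and 371 CPM (RepB, WT) at day 6 (log2 -1.54 ± 0.17), L1td1, an RNA-binding protein, 149 and 166 CPM (RepB, WT) at day 7, against 506 and 461 CPM (RepB, WT) at day 6 (log2 -1.58 ± 0.19), and the ligand Gdf3 21.0 and 16.1 CPM (RepB, WT) at day 7, against 77.8 and 45.2 CPM (RepB, WT) at day 6 (log2 -1.66 ± 0.16). Sox2 had 174 and 150.3 CPM (RepB, WT) at day 7, against 317 and 239.7 CPM (RepB, WT) at day 6 (log2 -0.75 ± 0.13), and its call, like those of Utf1 (-1.05 ± 0.23) and Dnmt3l (-0.62 ± 0.17), was lost without at least 3 of the 4 libraries in turn. Lin28a, Lin28b and Sall4 did not pass the test, with Lin28a at 643 and 695 CPM (RepB, WT) at day 7, against 553 and 642 CPM (RepB, WT) at day 6 and Sall4 at 431 and 528 CPM (RepB, WT) at day 7, against 349 and 433 CPM (RepB, WT) at day 6.

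Of 14 formative and primed epiblast genes 13 were tested, 10 were lower and none was higher, with a median of -1.06. Fgf5, the classic epiblast growth factor, had 43.1 and 96.6 CPM (RepB, WT) at day 7, against 198 and 269 CPM (RepB, WT) at day 6 (log2 -1.77 ± 0.30). Foxd3 had 7.07 and 6.67 CPM (RepB, WT) at day 7, against 18.1 and 29.3 CPM (RepB, WT) at day 6 (log2 -1.81 ± 0.25), Zic2, a zinc finger factor, 113 and 172 CPM (RepB, WT) at day 7, against 285 and 408 CPM (RepB, WT) at day 6 (log2 -1.27 ± 0.22), Otx2, a homeobox factor of epiblast and forebrain, 70.5 and 91.5 CPM (RepB, WT) at day 7, against 162 and 187 CPM (RepB, WT) at day 6 (log2 -1.10 ± 0.21), and Dnmt3b, the de novo methyltransferase, 373 and 548 CPM (RepB, WT) at day 7, against 594 and 1061 CPM (RepB, WT) at day 6 (log2 -0.82 ± 0.19). For each of them both day 7 libraries lay below both day 6 libraries. No member of this list was called in all 4 fits that left out a library: 1 (RepB day 7), 3 (WT day 7), 6 (RepB day 6) and 4 (WT day 6) were lower. Dnmt3a and Lef1 did not pass the test, with Dnmt3a at 184 and 196 CPM (RepB, WT) at day 7, against 179 and 227 CPM (RepB, WT) at day 6.

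Among primitive streak genes, the Nodal and organizer group fell. Of 21 listed, 6 were lower and 1, Cdx2, was higher, with a median of -0.72. Cer1, a secreted antagonist of Nodal, BMP and Wnt, had 2.74 and 3.91 CPM (RepB, WT) at day 7, against 16.4 and 16.4 CPM (RepB, WT) at day 6 (log2 -2.24 ± 0.30). Nodal had 55.2 and 52.4 CPM (RepB, WT) at day 7, against 151 and 118 CPM (RepB, WT) at day 6 (log2 -1.28 ± 0.16), and its feedback inhibitors Lefty1 and Lefty2 had 23.5 and 18.2 CPM (RepB, WT) at day 7, against 85.8 and 52.1 CPM (RepB, WT) at day 6 for Lefty1 and 86.0 and 56.0 CPM (RepB, WT) at day 7, against 304 and 165 CPM (RepB, WT) at day 6 for Lefty2 (log2 -1.67 ± 0.14 and -1.67 ± 0.16). These 4 and Cdx2 kept their calls without any 1 of the 4 libraries. Gsc, the organizer homeobox factor, had 16.2 and 24.4 CPM (RepB, WT) at day 7, against 41.6 and 56.9 CPM (RepB, WT) at day 6 (log2 -1.27 ± 0.27), which was not called in any fit that left out a library, and Cdx1 was near 1 CPM at day 7. T, which defines the streak, had 177 and 286 CPM (RepB, WT) at day 7, against 667 and 624 CPM (RepB, WT) at day 6 (log2 -1.48 ± 0.47, edgeR adjusted p = 0.072) and did not pass. Both day 7 libraries were below both day 6 libraries. Eomes (346 and 385 CPM (RepB, WT) at day 7, against 518 and 497 CPM (RepB, WT) at day 6), Mixl1 (97.6 and 135 CPM (RepB, WT) at day 7, against 200.0 and 196 CPM (RepB, WT) at day 6) and Evx1 (166 and 170.5 CPM (RepB, WT) at day 7, against 143 and 145 CPM (RepB, WT) at day 6) did not pass either.

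Calls among genes of proliferation, metabolism and stress were sensitive to single libraries, and are to be read against 6.17% higher and 3.51% lower over all genes tested. Of 31 cell cycle genes, only Ccne1, cyclin E1, was called, with 101.95 and 97.2 CPM (RepB, WT) at day 7, against 168 and 155 CPM (RepB, WT) at day 6 (log2 -0.69 ± 0.16), and not without any 1 of the 4 libraries. Mki67, a proliferation marker, stood at 1223 and 1206 CPM (RepB, WT) at day 7, against 1104 and 1070.3 CPM (RepB, WT) at day 6. Of 19 tested cholesterol synthesis genes 5 were higher and none lower, with a median of 0.35, among them Dhcr7 (0.76 ± 0.18) and the regulator Srebf2 (0.65 ± 0.18); 1 or none was called when a library was left out. Of 28 hypoxia and glycolysis genes 5 were higher and 1 was lower. The higher ones included the collagen prolyl hydroxylase subunits P4ha1 (0.82 ± 0.12) and P4ha2 (0.89 ± 0.16) and Vegfa (0.74 ± 0.18), and the lower one was Pdk1 (-0.50 ± 0.11); without a library 0 to 3 were higher. Pkm, pyruvate kinase, did not pass, at 2724 and 2540.3 CPM (RepB, WT) at day 7, against 3035 and 3069.5 CPM (RepB, WT) at day 6. Immediate early genes, which respond within minutes to growth factors and to handling, gave 4 higher and 6 lower of 21. Egr1 (-1.05 ± 0.26), Dusp6 (-1.12 ± 0.19) and Junb (-0.65 ± 0.17) fell, and Myc (0.62 ± 0.13) and Fosl2 (0.93 ± 0.18) rose, and none of these was called in all 4 fits that left out a library. Of 18 p53 targets and inhibitors 1 was higher and 3 were lower, and of 17 stress genes 2 were lower; Sesn2 is on both lists. Of 12 retinoic acid genes 1 was higher and 1 was lower, and of 13 tested germline genes 3 were lower. No call of these last 4 lists held in all 4 fits that left out a library, and no p53 target was called without RepB day 7 or WT day 7. Rhox6 and Rhox9 are among those 3, and belong to a family of close copies between which reads can be split.

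**Figure D2:**
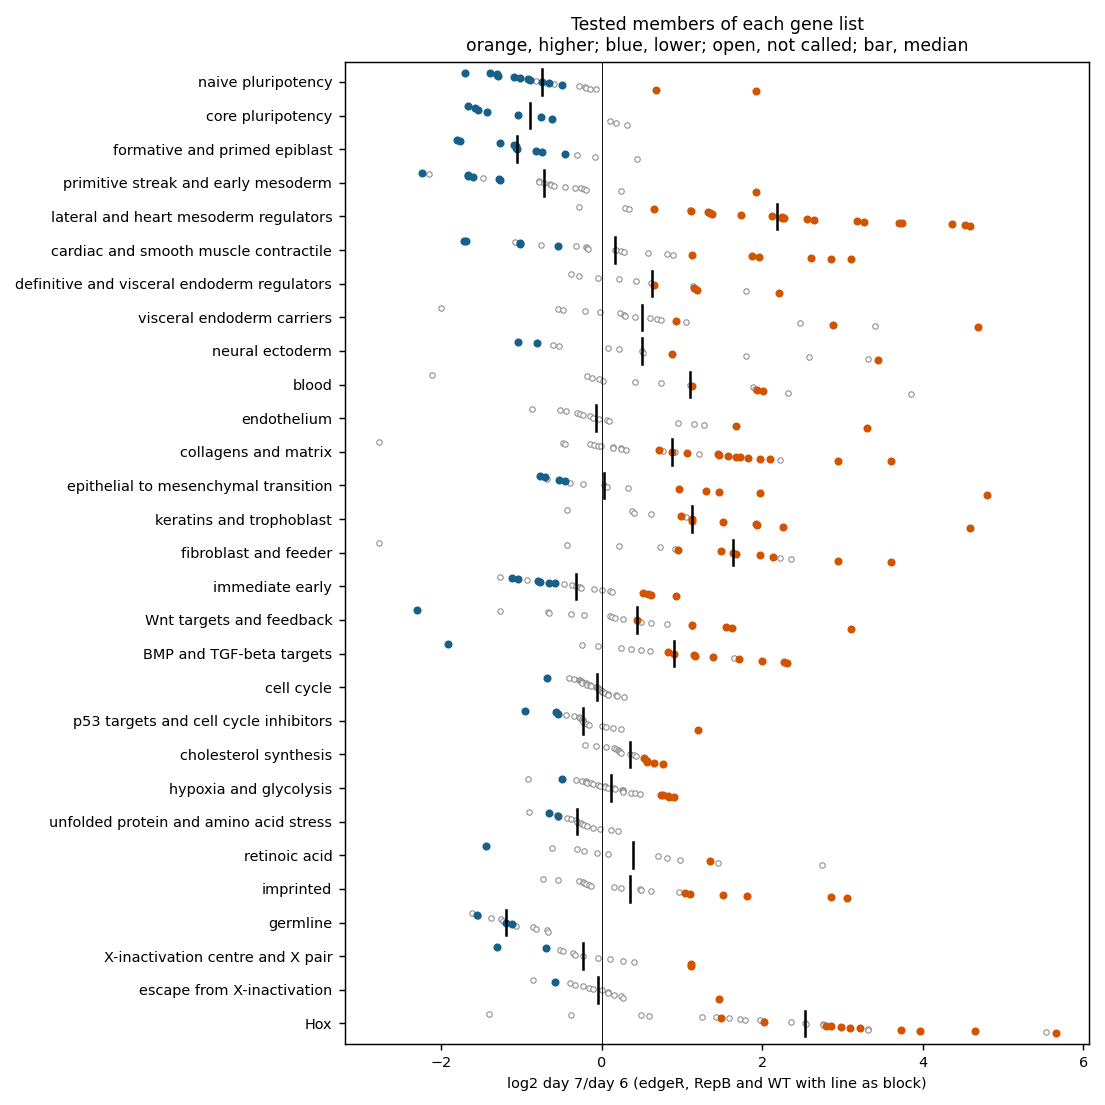
Log2 change of day 7 over day 6 (edgeR, RepB and WT with line as block) for every tested member of 29 gene lists, lists down the page; orange points are genes called higher, blue called lower, open points not called, and the bar is the median. The lateral and heart mesoderm regulators have a median of 2.18 with 19 higher members and none lower, and the formative and primed epiblast genes a median of -1.06 with 10 lower members and none higher.

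The changes of RepB and WT ran together. Across 12388 genes of at least 2 CPM, the RepB and WT changes correlated with r = 0.79 and rho = 0.73, as a description over genes, which are not independent. They had the same sign for 78.7% of these genes, and for 98.1% of the 1332 genes that changed over 1.5-fold in both lines. The 100 largest rises of WT were ranked by the WT change alone and read in RepB. The minimum of 2 CPM was a mean over all 4 libraries, so RepB levels had a part in which genes could enter. Of these rises, 99 were higher at day 7 in RepB too, 95 of them over 2-fold, with a median of 2.23 in RepB and 2.47 in WT. Of the 100 largest falls of WT, 97 were lower at day 7 in RepB, 68 of them over 2-fold, with a median of -1.34 in RepB and -1.45 in WT. Conversely, of the 100 largest rises of RepB all 100 were higher in WT, 97 of them over 2-fold. Of the 100 largest falls of RepB 96 were lower in WT and 59 over 2-fold, with a median of -1.83 in RepB and -1.09 in WT. WT libraries were deeper on both days.

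The test of the difference itself, RepB's change less WT's, called 0 of 13955 genes with edgeR (0%), with 112 at an unadjusted p under 0.05 and a smallest adjusted p of 0.103. It had 2 residual degrees of freedom. limma-voom called 0 and DESeq2 called 1. That gene, Gm1821, a name of the kind given to predicted genes, had 63.4 and 12.8 CPM (RepB, WT) at day 7, against 35.7 and 54.3 CPM (RepB, WT) at day 6. The genes that followed in order of p included Mrps36 and the ribosomal protein genes Rps16 and Rpl10. Rps16 had 9.81 and 28.6 CPM (RepB, WT) at day 7, against 48.5 and 10.2 CPM (RepB, WT) at day 6. These genes were chosen after their values were seen. Ribosomal protein genes have many near-identical pseudogenes between which reads can be split, so their counts are uncertain. Leaving out the libraries of day 8 raised the count to 10, among them Naca, Hist1h2an, Mrps36, Gm1821, Rps16 and Rps4x, leaving out day 5 gave 2, and testing without the low-count filter gave 4.

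**Figure D3:**
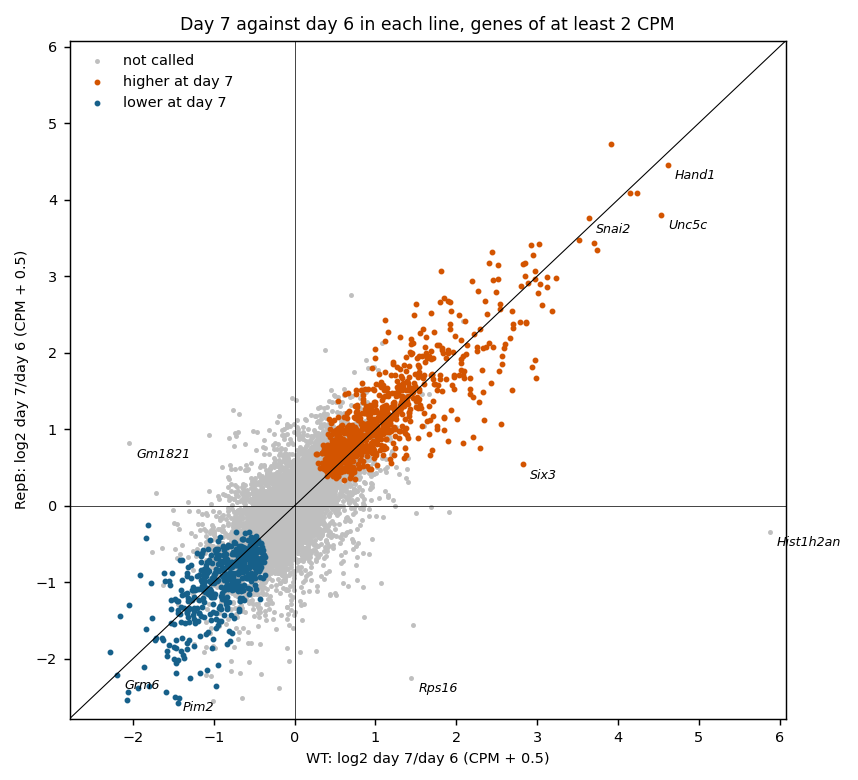
Log2 day 7 over day 6 in RepB (vertical axis) against WT (horizontal axis), on CPM plus 0.5, for genes of at least 2 CPM over the 4 libraries; 1 point is 1 gene, orange called higher, blue called lower, grey not called, and the diagonal marks equal change. Called genes lie along the diagonal, while Gm1821, Rps16 and Hist1h2an, which were not called, lie far from it.

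Xist, the noncoding RNA after whose Repeat B the RepB line is named, did not pass the test. It had 1625 and 1372 CPM (RepB, WT) at day 7, against 1174 and 1304 CPM (RepB, WT) at day 6 (log2 0.27 ± 0.18, edgeR adjusted p = 0.38), and its first listed exon lies at chrX:100655712-100663375 in mm9. Tsix is transcribed antisense across Xist, so without a stated strand setting their reads cannot be told apart. The cas share of Xist was 13.6% (RepB) and 2.57% (WT) at day 7, against 17.1% (RepB) and 3.17% (WT) at day 6, so most allelic Xist counts were assigned to mus on both days. Counts over the whole gene cannot show an edit within Xist, so they do not check the RepB label. Of 13 tested genes of the X-inactivation centre or tied to the pair of active X chromosomes, 2 were higher and 2 lower. Over all genes tested, 6.17% were higher and 3.51% lower. Dusp9 had 469.6 and 274 CPM (RepB, WT) at day 7, against 215 and 132 CPM (RepB, WT) at day 6 (log2 1.10 ± 0.18) and Klhl13 225 and 135 CPM (RepB, WT) at day 7, against 378 and 213 CPM (RepB, WT) at day 6 (log2 -0.69 ± 0.14), with RepB above WT on both days for both genes. Amot, an angiomotin, changed by 1.10 ± 0.26. Only Nr0b1 of these kept its call without each of the 4 libraries. Of 14 genes known to escape X-inactivation 1, Bgn (1.46 ± 0.28), was higher and 1, Utp14a (-0.58 ± 0.16), was lower, near the 6.17% and 3.51% of all genes. The call of Bgn was lost without RepB day 7, WT day 7 or WT day 6, and that of Utp14a without each of the 4 libraries in turn.

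The X-linked genes changed slightly below the autosomal ones. Of 515 tested X-linked genes 34 were higher and 40 were lower (7.77%), against 6.17% and 3.51% of all genes. The median log2 change of 491 X-linked genes less that of 12849 autosomal genes was -0.08 in RepB and -0.08 in WT. An exact permutation test on a pair of values cannot reach 0.05, so none was made. The allelic counts were shifted towards cas, the allele that held the smaller share of Xist counts. Over 287 X-linked genes with at least 10 allelic counts a library, the median cas share was 70.4% (RepB) and 90.8% (WT) at day 7, against 66.7% (RepB) and 86.5% (WT) at day 6. The share was higher at day 7 for 185 genes and lower for 99 in RepB, and higher for 203 and lower for 83 in WT. Genes with a cas share of at least 90% numbered 32 (RepB) and 151 (WT) at day 7, against 17 (RepB) and 95 (WT) at day 6. For 2927 autosomal background genes the median stood between 50.6% and 50.7% in all 4 libraries. These genes were chosen by a day 0 cas share of 25% to 75%, which largely set that level. The X-linked genes were not chosen in this way. The change of the X-linked median was 3.76 percentage points in RepB and 4.27 in WT, and the difference between the lines was not tested.

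Gene by gene, few of these shifts could be resolved. The edgeR test on allelic counts called 2 of 306 X-linked genes higher in cas share at day 7 (0.654%), 0 lower (0%), and 0 of 3065 autosomal background genes (0%). At an unadjusted p under 0.05 there were 43 X-linked genes, 41 of them with a higher share, and 154 autosomal genes, 92 of them with a higher share. The called genes were Rpl39 and Rps4x, both ribosomal. Rpl39 had a cas share of 20.8% (RepB) and 44.0% (WT) at day 7, against 11.5% (RepB) and 1.85% (WT) at day 6. Rps4x had 2.71% (RepB) and 17.9% (WT) at day 7, against 1.92% (RepB) and 3.37% (WT) at day 6. Both lay far below the X-linked medians and moved mainly in WT, and the split of reads with pseudogenes noted above holds for them too. Below the threshold, Mum1l1 had 93.6% (RepB) and 98.6% (WT) at day 7, against 76.1% (RepB) and 95.5% (WT) at day 6 (edgeR adjusted p = 0.18), and Maged2 had 96.2% (RepB) and 97.0% (WT) at day 7, against 89.8% (RepB) and 94.0% (WT) at day 6 (edgeR adjusted p = 0.35). They were chosen after their values were seen. With the 4 libraries of days 6 and 7 alone, 7 X-linked and 7 autosomal genes were called.

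**Figure D4:**
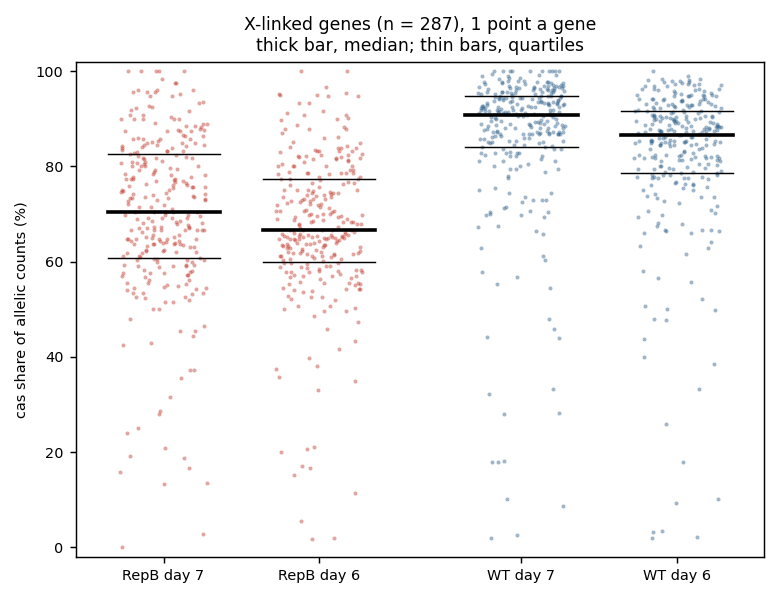
The cas share of allelic counts in percent for 287 X-linked genes, day 7 left of day 6 within each line; 1 point is 1 gene, the thick bar the median and the thin bars the quartiles. The medians are 70.4% (RepB day 7), 66.7% (RepB day 6), 90.8% (WT day 7) and 86.5% (WT day 6).

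Set beside the neighbouring steps of the same fit, which share libraries with it, the step to day 7 had 1351 calls, between 845 from day 5 to day 6 and 1855 from day 7 to day 8. Its rising genes differed in timing. Over days 5, 6, 7 and 8, Hand1 stood at 1.90, 30.4, 679 and 1531 CPM in RepB and 1.33, 18.6, 468 and 973 CPM in WT. Foxf1 stood at 0, 4.35, 82.1 and 93.0 CPM in RepB and 0.111, 3.06, 66.7 and 55.4 CPM in WT over the same days. Both were also called higher at the step to day 6, and at the step to day 8 Hand1 was called again and Foxf1 was not. Tbx20 had 1.14, 7.29, 83.5 and 159.8 CPM in RepB and 2.21, 4.49, 64.4 and 81.3 CPM in WT over these days and was called at the step to day 7 alone of the 3. Snai2, with 0.379, 0.280, 10.0 and 108 CPM in RepB and 0.111, 0.408, 10.8 and 59.5 CPM in WT, was not called at the step to day 6 and was called at the steps to days 7 and 8, as was Pitx1. Among the falling genes, Cer1 had 1.14, 16.4, 2.74 and 0.289 CPM in RepB and 1.38, 16.4, 3.91 and 0.876 CPM in WT, and Apln had 9.86, 86.6, 14.8 and 3.47 CPM in RepB and 8.25, 70.7, 25.9 and 5.13 CPM in WT. Both were called higher at the step to day 6 and lower at the steps to days 7 and 8, so day 6 held their highest level of these days. Slc27a2, with 63.1, 25.4, 6.39 and 1.44 CPM in RepB and 78.5, 41.0, 7.999 and 3.13 CPM in WT, was called lower at all 3 steps.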

How the data were processed

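Poly(A) RNA was sequenced from 12 libraries of RepB and WT cells. The authors deposited a table of read counts per gene, with total counts and counts assigned to the cas and mus alleles. It also lists each gene's exon positions in mm9 and its exon length in bases, an unscaled measure of another kind, per the file headers. Novoalign, TopHat, SAMtools, bedtools and featureCounts are named in the submitters' processing notes, without versions or settings, and the strand setting of the counting is not given in the sources used here. The counts hold 6 columns of day 14, which match no sample and were not used, and 27 gene names read as dates.

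Counts were tested in R 4.3.3 with the quasi-likelihood test of edgeR 4.0.16 (TMM scaling, filterByExpr by day, day and line as terms) on the 10 libraries of days 5 to 10, with Benjamini-Hochberg adjustment over all 13955 genes and a threshold of 0.05. The fit had 4 residual degrees of freedom and a common biological coefficient of variation of 12.2%. Samples were grouped by the day and line in their labels, which carry no replicate numbers. The line difference used an interaction of line and day with 2 residual degrees of freedom. Allele shares were tested on cas and mus counts with the library as block, where allelic counts averaged 20 or more, and autosomal background genes had a cas share of 25% to 75%. Library totals limit precision as counting error only, and intervals do not cover the spread between cultures. Named genes were the 14 largest rises and 14 largest falls among called genes whose log2 CPM averaged 2 or more, with the same sign in both lines and a named symbol, plus Xist and, for each list, called members or up to 4 members of highest level. Some markers that define a cell type were named beyond that rule, after their values were seen. The members and lists were chosen with earlier results of these data known. Alternatives were DESeq2 1.42.0, limma-voom (limma 3.58.1), other scaling, filtering and library sets, thinned counts and each library left out. Each procedure was tested on simulated data. The promoter sequences are from RefSeq. A few genes of the lists are not reported here.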

Additional observations from a re-analysis of the deposited data

How the results depend on the processing

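None of the leading genes and called list members changed sign in a setting that tested them, at most 200 genes a setting. Over all called genes, 1 changed sign without WT day 7 and 1 without WT day 6. The 861 higher and 490 lower genes became 281 to 362 higher and 58 to 143 lower when each of the 4 libraries was left out in turn, where the lone library of a day is assumed to vary like the others and fewer samples enter. Leaving out both libraries of day 8 gave 1550 higher and 1075 lower, and the 4 libraries of days 6 and 7 alone, with 1 residual degree of freedom, gave 2509 and 2218. Without the low-count filter 982 were higher and 769 lower. With no replicate block, that is without the line term, 611 were higher and 186 lower. The cause of the shifts was not tested. The share of calls that were higher was 63.7%, against 53.1% with the 4 libraries alone and 76.7% without the line term. DESeq2 called 814 higher and 362 lower, limma-voom 1000 and 643, and counts thinned to the smallest library 648 and 352. In all 15 settings, 199 higher and 27 lower genes were called. The line difference had 0 calls, and 4 without the filter, 1 with DESeq2, 2 without day 5 and 10 without day 8. The X-linked genes called by allele numbered 2, and 7 with the 4 libraries alone. The X-linked median less the autosomal one was -0.0819 as the mean of RepB and WT, and -0.0752 with a pseudocount of 2 CPM. The rise of the median X-linked cas share was 4.01 percentage points, and 4.39 with at least 25 allelic counts a library. At RepB day 7, the smallest of the 4 libraries, genes under 0.684 CPM rest on fewer than 3 counts.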

Other observations

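Gene families grouped by symbol, picked after their values were seen, overlapped the lists and gave some further called genes. Among 9 tested Tbx genes 5 were higher and none lower, with Tbx15 added to Tbx2, Tbx3, Tbx5 and Tbx20. Among 8 tested Bmp genes 6 were higher and none lower, with Bmp6 and Bmp1 added to the 4 ligands of the report. Among 6 Gata genes 4 were higher and none lower, and these 4 were already on the lists. Among 37 tested collagen genes 14 were higher and 1, Col9a2, was lower. Among 18 tested Sox genes Sox9, a factor of cartilage and neural crest, was higher, and Sox2, Sox3 and Sox15 were lower. None of 11 tested genes of the histone clusters and none of 5 Irx genes was called. Of 72 tested ribosomal protein genes none was higher and 5 were lower, among them Rpl35, Rpl7a and Rpl19, with a median log2 change of -0.26; reads of this family can be split with its pseudogenes.

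The cluster histone gene Hist1h2an had 0.228 and 32.9 CPM (RepB, WT) at day 7, against 0.420 and 0.068 CPM (RepB, WT) at day 6. It has near-identical copies, so its counts are uncertain, and the difference between its RepB and WT changes passed the edgeR test only when both libraries of day 8 were left out.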
